A study of Mus musculus with 8 samples.

Results

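The 5′ isoforms of miRNAs (isomiRs with another seed) were described in the RISC of mouse brain. They were the miRNA-matched reads of 19 to 23 nt whose 6mer seed differed from the main seed of their miRNA. The main seed was the seed with the largest summed level under that name in the same 8 libraries, so the measured levels chose the members, and the size of the class is given as a description. There were 8682 such reads among 47204 distinct sequences, or 18.4%, and they made up 45.2% of the 19209 miRNA reads of these lengths. They came from 523 of 886 miRNA names.

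R-sRNAs, the small RNAs bound to Argonaute, were pulled down with a GW182 peptide from 250 mg of combined cortex and hippocampus of 8 female mice on a mixed C57BL/6J/SJL background. All mice carried the 5XFAD transgene, a neuronal promoter driving mutant human genes of familial Alzheimer's disease, and there was no group without it. In 4 mice Rubicon, a gene that restrains autophagy, was heterozygous (5XFADtg Rubicon+/-, het), and in 4 it was knocked out (5XFADtg Rubicon-/-, ko). Their age is given as 6 months where this comparison is described and as 6 or 8 months in the methods, and no age is tied to a single animal. The replicates were different mice by their labels.

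A miRNA hairpin is cut by Drosha at its base and by Dicer near its loop. On the 5p arm the 5′ end of the guide strand is made by Drosha, and on the 3p arm by Dicer. The guide recognises targets mainly through its seed, counted from the second base, so a cut displaced by a single base gives a guide with another seed from the same gene. A seed can also change without a shift, when a base inside it is replaced, as happens when ADAR enzymes turn adenosine into inosine, which is read as G. The seed viability score attached to each read comes from a screen in mouse cell lines, and is the mean percent of cells surviving an siRNA with that seed. A low score marks a seed that kills cells by Death Induced by Survival gene Elimination (DISE).

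The most abundant read of each main seed and of the leading isoform is shown for the miRNAs on which the results below turn. Sequences are deposited reads written as RNA, 5′ to 3′, and capitals mark the 6mer seed at positions 2 to 7. The first set holds 3p arms with isoforms close in level to the main form.
miR-9-3p, main: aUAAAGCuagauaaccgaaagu
miR-9-3p, start 1 base later: uAAAGCUagauaaccgaaagu
miR-126a-3p, main: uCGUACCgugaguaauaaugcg
miR-126a-3p, start 1 base later: cGUACCGugaguaauaaugcg
miR-101a-3p, main: uACAGUAcugugauaacuga
miR-101a-3p, start 1 base earlier: gUACAGUacugugauaacuga
miR-136-3p, main: aUCAUCGucucaaaugagucu
miR-136-3p, start 1 base earlier: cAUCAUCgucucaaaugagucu
miR-136-3p, start 1 base later: uCAUCGUcucaaaugagucuu

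The second set shows isoforms that are a smaller part of an abundant miRNA, and the largest exchange of a base in a let-7 seed.
miR-29a-3p, main: uAGCACCaucugaaaucgguu
miR-29a-3p, start 1 base earlier: cUAGCACcaucugaaaucgguu
miR-132-3p, main: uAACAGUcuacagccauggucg
miR-132-3p, start 1 base later: aACAGUCuacagccauggucg
miR-128-3p, main: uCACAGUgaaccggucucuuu
miR-128-3p, start 1 base later: cACAGUGaaccggucucuuu
miR-9-5p, main: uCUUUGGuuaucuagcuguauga
miR-9-5p, start 1 base later: cUUUGGUuaucuagcuguauga
miR-24-3p, main: uGGCUCAguucagcaggaacagu
miR-24-3p, start 1 base later: gGCUCAGuucagcaggaacagu
let-7c-5p, main: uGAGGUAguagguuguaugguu
let-7c-5p, A3G: uGGGGUAguagguuguaugguu

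The third set holds 2 arms whose main seed in these libraries is not that of the RefSeq mature sequence, the A2G form of miR-497a-5p, and an isoform of miR-200a-3p, whose comparison between genotypes is described below.
miR-323-3p, main: gCACAUUacacggucgaccucu
miR-323-3p, start 1 base later: cACAUUAcacggucgaccucu
miR-411-5p, main: aUAGUAGaccguauagcguacg
miR-411-5p, start 1 base later: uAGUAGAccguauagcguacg
miR-497a-5p, main: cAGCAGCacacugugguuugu
miR-497a-5p, A2G: cGGCAGCacacugugguuugu
miR-200a-3p, main: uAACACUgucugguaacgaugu
miR-200a-3p, start 1 base later: aACACUGucugguaacgauguu

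By exact match to RefSeq hairpins (GRCm38.p6), the isoform of miR-101a-3p lies at chr4:101346958-101346978 on the minus strand, in an exon of the lincRNA E130102H24Rik. The miR-126a-3p isoform lies at chr2:26591403-26591423 on the plus strand, in an exon of Egfl7 by GENCODE M21. The isoform of miR-136-3p with the earlier start lies at chr12:109595365-109595386 on the plus strand, opposite an exon of Rtl1. The miR-29a-3p isoform lies at chr6:31062674-31062695 of the minus strand, in no other annotated gene. The miR-132-3p isoform lies at chr11:75173724-75173744 on the plus strand, in an intron of 1700016P03Rik. The miR-9-3p isoform matches 3 hairpins, at chr3:88215653-88215673, chr13:83738859-83738879 and chr7:79505319-79505339, so its gene of origin cannot be read from the sequence. The miR-128-3p isoform matches 2, in introns of R3hdm1 (chr1:128202405-128202424) and Arpp21 (chr9:112118644-112118663). The miR-200a-3p isoform lies at chr4:156054910-156054931 on the minus strand, in an intron of Ttll10.

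Library depth, recovered from the steps of the CPM values (reads per 1000000 reads of the library), ran from 509839 to 19878056 reads, and both libraries above 5000000 reads were ko. The share of the 8682 isoform reads that was detected rose with it, from 26.8% in het replicate 1 to 94.0% in ko replicate 2. In all 8 libraries 1060 members were detected, and 590 were found in 1. The neuronal miRNAs miR-124-3p, miR-9-5p and miR-128-3p summed to between 142254 and 243301 CPM per library, and none was at 0. Values of single scarce reads in the shallow libraries rest on few reads.

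Most isoform reads were scarce and a few were among the abundant guides of the brain. The median member had a mean of 0.640 CPM. A mean of at least 1 CPM was reached by 3221 members, of at least 10 CPM by 580, of at least 100 CPM by 73 and of at least 1000 CPM by 9. Together the members held 61930 CPM, of which the 10 most abundant reads gave 35.3% and the 100 most abundant 66.0%. 6 miRNA names gave 50% of it.

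In each library the isoforms were a small and even share of all miRNA reads of 19 to 23 nt. The share was 7.09%, 6.73%, 6.81% and 5.99% in het replicates 1 to 4. In ko replicates 1 to 4 it was 6.89%, 6.67%, 6.49% and 7.55%. The groups overlapped over most of their range. Counting error was small beside this spread, as the 95% Wilson intervals of single libraries were between 0.0227 and 0.147 percentage points wide, and these intervals cover counting error only.

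miR-124-3p, the miRNA that maintains neuronal identity, was the largest source of isoforms. Its members held 9698 CPM, or 15.7% of all isoform CPM, and 93.8% of that started upstream of the main start. The isoform share of miR-124-3p was 17.6%, 18.0%, 19.8% and 19.3% in het and 19.99%, 19.2%, 20.0005% and 18.5% in ko replicates 1 to 4, a narrow range in which the genotypes overlapped. Most of it carried the seed UAAGGC, at 8939 CPM, which is 1 base upstream of the main seed AAGGCA and amounted to 21.5% of the main-seed level.

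miR-9, which promotes neurogenesis, gave isoforms from both arms. On miR-9-3p the guide that starts 1 base later, with the seed AAAGCU, had a mean of 8465 CPM against 8910 CPM for the main seed. The isoform share was 48.6%, 50.6%, 46.5% and 51.5% in het and 47.8%, 48.3%, 49.0% and 51.5% in ko, so both 5′ ends were loaded at similar levels in every mouse. The 21 nt and 22 nt reads of this isoform were the most abundant members, with 3422 ± 601 and 3311 CPM (mean, and SD over 8 libraries for the first). On miR-9-5p, loaded at a far higher level, the isoform share was 7.32% and most of it, 93.7%, started later.

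miR-101a-3p and miR-101b-3p, which differ outside the seed and share it, gave the same isoform. A start 1 base upstream gave the seed UACAGU in place of ACAGUA. It was 68.6% of the main-seed level for miR-101a-3p and 50.3% for miR-101b-3p. For miR-101a-3p the share of all isoforms was 39.7%, 45.4%, 42.7% and 29.6% in het and 49.7%, 47.8%, 42.7% and 39.1% in ko, with het replicate 4 the lowest. For miR-101b-3p het replicate 4 was again lowest, at 22.0%, and the other libraries lay between 32.4% and 42.0%.

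miR-29a-3p, a miRNA that restrains collagen and amyloid-processing genes, carried 2660 CPM of isoforms, 10.1% of its reads. Of these 85.0% started upstream, mostly with the seed UAGCAC, and the same seed was found at 573 CPM on its relative miR-29b-3p, where it was 4.63% of the main seed. miR-126a-3p, a miRNA of endothelial cells, had 2414 CPM of isoforms at a share of 43.1%, nearly all of it, 96.5%, with a later start. Its isoform level varied between mice more than its share did. In CPM it was 3236, 3812, 924 and 1784 in het and 1346, 3811, 2581 and 1818 in ko, while the share stayed between 38.7% and 47.0%.

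miR-128-3p, a regulator of neuronal excitability, gave 1789 CPM of isoforms at a share of 2.62%. miR-132-3p, which is induced by neuronal activity, gave 1609 CPM at 6.38%, with one of the narrowest ranges over mice, 6.03% to 6.61%. miR-136-3p, from the imprinted Dlk1-Dio3 region, was the miRNA of at least 1000 CPM with the highest isoform share, 56.7%. It gave both kinds, as 56.7% of its isoform CPM started earlier and 43.2% later. let-7c-5p with 998 CPM and miR-125b-5p with 825 CPM completed the 12 leading sources, at shares of 2.05% and 3.75%. These 12 names gave 63.0% of all isoform CPM.

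High shares were found in few miRNAs. Among the 95 names of at least 1000 CPM, all of which had members, the median isoform share was 2.85% and the range 0.737% to 56.7%. A share above 10% was found in 15 names and one above 25% in 11. After miR-136-3p, the highest were miR-323-3p (49.1%), miR-9-3p (49.0%), miR-411-5p (48.2%), miR-126a-3p (43.1%), miR-101a-3p (41.2%), miR-101b-3p (33.5%), miR-495-3p (31.3%), miR-137-3p (29.5%) and miR-132-5p (28.7%). Since the second seed cannot exceed the main seed, a share near 50% marks arms where the choice of main seed was close. The second seed was 92.8% of the main one by summed level over all lengths for miR-323-3p, 92.5% for miR-9-3p and 91.5% for miR-411-5p. For miR-136-3p it was 73.7%, for miR-126a-3p 72.3% and for miR-495-3p 38.5%.

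For some of these arms the isoform is the annotated miRNA. Of the 886 names, 750 had a RefSeq mature sequence, and in 91 of them the main seed was not the annotated seed. In 21 of the 91 the name had at least 100 CPM and in 4 at least 1000 CPM. For miR-323-3p the annotated seed ACAUUA held 47.2% of reads and for miR-411-5p the annotated AGUAGA held 47.4%. For miR-101b-3p and miR-132-5p the annotated seed held 33.4% and 27.4%. miR-140-3p and the blood-cell miRNA miR-142a-3p, both known for alternative 5′ ends, had 41.2% and 43.3% of reads on the annotated seed. With the RefSeq seed as main seed in the matched names, the isoform share of all miRNA reads was 7.29% rather than 6.78%.

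Of 11 miRNAs listed as known for alternative 5′ ends, 9 were in the table and had a median isoform share of 33.5%, against 2.59% over the 694 names of at least 1 CPM. This list was put together with earlier results of these data known. The lowest of the 9 was miR-9-5p with 7.32% and the highest miR-142a-3p with 52.3%. In the miRNA cluster of the Dlk1-Dio3 region (chr12:109563692-109747960), 14 matched names of at least 1000 CPM had a median share of 7.21%, against 2.58% in the 66 other matched names. The cluster as a whole gave isoforms at 11.5% of its reads, with 9.80% to 13.1% over libraries.

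A start 1 base from the main start accounted for most of the class. Reads that began downstream of the main start numbered 4184 and gave 56.1% of isoform CPM, of which a shift of 1 base gave 49.5%. Reads that began upstream numbered 3220 and gave 40.9%, of which a shift of 1 base gave 37.8%. Reads with the same start and a changed base inside the seed numbered 1204 and gave 2.92%. A further 74 reads with 0.126% of the CPM could not be placed on the main read.

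Later starts were mostly template sequence, and earlier starts less so by number. Among members with a RefSeq hairpin, the first 16 bases lay in the hairpin for 90.6% of later-start reads and 98.9% of their CPM. Among earlier-start reads this was 48.2% of reads but 88.4% of CPM. These earlier starts held 15684 of the 25321 CPM of the kind, and those of miR-124-3p, the largest source, are not among them. The abundant ones that were compared thus matched the hairpin, while more than 50% of the distinct ones differed from it within these bases.

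The 3′ ends moved less than the 5′ ends. Reads that began 1 base later ended on average 0.476 nt further downstream than the main-seed reads of the same miRNA. Those that began 1 base earlier ended 0.573 nt further upstream. Part of each shift was thus of the whole read, and the rest changed the length, by which later-start reads were 21.3 nt long against 21.8 nt.

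The arms differed in how often and in which direction the 5′ end moved. Isoforms made up 3.30%, 3.10%, 3.28% and 3.07% of 5p reads in het and 3.50%, 3.30%, 3.33% and 3.54% in ko. On 3p arms they made up 11.7%, 10.9%, 10.6% and 9.36% in het and 11.4%, 10.6%, 10.3% and 11.9% in ko. The ranges of the arms were far apart, and the share was higher on 3p arms in 8 of 8 libraries. The difference was 7.53 ± 0.717 percentage points (mean ± SD, n = 8 libraries). It is given as a description with no p, since the main seeds were chosen on the same libraries and the miRNAs are the same in each.

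On 5p arms, later starts made up 2.49% of reads and earlier starts 0.563%. On 3p arms they were balanced, with 5.32% later and 5.35% earlier. Abundant single miRNAs weighed on the 3p value. Without the 12 leading sources the isoform share was 2.83% on 5p arms and 5.92% on 3p arms, and the ranges over libraries, 2.72% to 2.96% and 5.38% to 6.51%, still did not overlap. Without members whose seed is the main seed of any other name, the difference between the arms was 1.79 percentage points. By name, the 47 3p arms of at least 1000 CPM had a median share of 4.87%, with 13 above 10%, and the 47 5p arms a median of 2.18%, with 2 above 10%.

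The first base, which contacts Argonaute and is most often U in guide strands, was different in isoforms. U led 77.0% of main-seed CPM but 41.2% of isoform CPM, with ranges over libraries of 74.7% to 79.2% and 36.8% to 44.1%. C led 25.5% of isoform CPM against 3.59% of main-seed CPM, and G 18.4% against 1.45%. C led 29.1% of the CPM of later-start reads, and G led 27.4% of that of earlier-start reads, of which the G in front of miR-101a-3p is an example. Inside the seed, isoforms held U at 24.2% of positions, against 18.0% in the main seeds of the same reads, and A at 31.4% against 35.6%.

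The shift of the seed changed the viability score in both directions. Of 400 combinations of miRNA and isoform seed with at least 10 CPM, 197 had a lower score than the main seed and 200 a higher one. The median shift was 0.25 points and the range -67.7 to 61.9, with 111 lower by at least 20 points and 72 higher by at least 20. Weighted by level, isoforms had lower scores. Their mean seed viability was between 51.8 and 53.8 in the 8 libraries, whereas the main seeds of the same reads gave 58.1 to 60.8, so that no library overlapped.

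Weighted by CPM, the mean shift was -6.93, -6.91, -7.23 and -5.60 points in het and -6.10, -5.47, -4.29 and -8.10 in ko replicates 1 to 4. Seeds with a score under 40 carried 30.5% of isoform CPM (27.3% to 34.6%), against 10.3% for the main seeds of the same reads and 11.1% of main-seed reads in general. Seeds with a score over 80 carried 6.79%, against 16.1% for the main seeds of the same reads. Reads that started 1 base earlier changed by -19.5 points on average and those that started 1 base later by 1.69 points. The 12 leading sources carried most of the first value, as without them it was -2.82 points, and the second was 0.875. Larger displacements did not follow this order, with 1.98 and 12.4 points for starts 2 and 3 bases earlier and -14.1 points for starts 4 bases later.

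Few miRNAs made this shift. The isoform of miR-124-3p with the seed UAAGGC scores 31.2 against 57.3 for the main seed, and alone changed the mean viability over all miRNA reads by -0.255 points. The miR-101a-3p isoform went from 86.2 to 61.1 and contributed -0.117 points. The miR-29a-3p isoform went from 51.3 to 28.9 (-0.0542 points), that of miR-132-3p from 63.1 to 29.1 (-0.0413) and that of miR-136-3p from 83.4 to 37.3 (-0.0336). These 5 were the largest contributions downward.

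Other isoforms carried seeds with higher scores. The miR-126a-3p isoform GUACCG scores 60.9 against 38.4 for its main seed and added 0.0566 points. The miR-9-3p isoform added 0.0343 points through its level, although its score differed by only 3.7 points. The miR-128-3p isoform ACAGUG (70.2 against 49.5) added 0.0318 points. That of miR-26a-5p, CAAGUA (72.7 against 43), added 0.0107 points, and that of miR-24-3p, GCUCAG (77.3 against 31.8), added 0.0106. The net effect of all isoforms on the mean viability of miRNA reads was between -0.612 and -0.278 points over the 8 libraries.

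Some isoform seeds are the main seed of another miRNA. This held for 198 combinations and 28.6% of isoform CPM, counting other names of at least 100 CPM. The miR-9-3p isoform shares AAAGCU with miR-320-3p, and at 8465 CPM was above the 1045 CPM of that miRNA's main seed. The miR-101a-3p isoform at 4244 CPM shares UACAGU with miR-582-5p at 311 CPM. The later start of let-7c-5p, with AGGUAG at 652 CPM, shares its seed with miR-1839-5p at 452 CPM. The later start of miR-23b-3p gave CACAUU at 564 CPM, the main seed of miR-323-3p at 568 CPM. In the first 3 of these the isoform was the more abundant carrier of the seed. Scarcer names share further seeds, and without every member whose seed is main for any other name, the isoform share was 3.42% rather than 6.78% and the mean viability shift -1.77 rather than -6.33 points.

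Exchanges inside the seed were few, and A read as G was the most common. It was seen in 308 reads and gave 41.7% of the CPM of same-start members. Per 1000000 A bases in the seeds of main-seed reads there were 486 A-to-G differences (447 to 541 over libraries). The reverse, G to A, occurred 156 times per 1000000 G, U to C 241 times per 1000000 U, and C to U 221 times per 1000000 C. The ranges over libraries of A to G and of these 3 changes did not overlap. The most abundant A-to-G changes lay at bases 2 to 4 of the read, and the rates were not split by seed position. A base difference from editing cannot be told apart in these reads from other sources, such as sequencing or library synthesis.

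The let-7 family, whose guides share the seed GAGGUA, showed the exchange A3G in 8 of its 5p arms, with positions counted from 1 at the 5′ end of the main read. It gave the seed GGGGUA, whose score is 29.4 against 50.3. The level was 62.8 CPM for let-7c-5p, 47.9 CPM for let-7b-5p and 45.3 CPM for let-7a-5p. As a percent of the main seed it was between 0.106% for let-7e-5p and 0.167% for let-7d-5p. For A-to-G changes this percent is the mean of the library ratios, here and below. The highest single-read levels of A-to-G members were A3G of miR-128-3p at 44.8 CPM, of let-7c-5p at 40.5, of miR-132-3p at 30.9, of let-7a-5p at 29.3 and of let-7b-5p at 23.6 CPM.

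As a share of the main seed, other miRNAs stood far above that level. A2G of miR-497a-5p reached 4.78% (2.54% to 6.74% over libraries) and turned a seed with a score of 37.8 into one of 9.7. Its CPM was 25.1, 35.8, 33.8 and 27.4 in het and 27.9, 26.6, 31.4 and 31.4 in ko, with overlapping groups. A3G of miR-99b-3p was at 10.3% (0% to 18.0%) on a level of 4.89 CPM, and A3G of miR-151-3p at 2.09% (0.629% to 3.44%) on 7.89 CPM. A3G of miR-467a-5p, which is on no list and was singled out for its share after the values were seen, was at 10.5% (0% to 25.4%). It was the highest where the main seed had at least 100 CPM. Names with a scarcer main seed reached more, such as A3G of miR-376a-5p at 28.1% (10.7% to 56.9%) on 11.7 CPM and A3G of miR-467d-5p at 11.3% (0% to 42.2%) on 2.42 CPM. Library values of 0 lie under the level of 3 reads, which was 0.151 to 5.79 CPM, so at this depth a share of 0% is a limit of detection.

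Of 11 miRNAs listed as edited in brain, 10 were in the table, with a median isoform share of 4.33% of all kinds. An A-to-G member was found in 6 of them, each time at base 2 or 3 of the read. Whether reads changed at a later seed base kept their miRNA name was not tested. Apart from the 3 above, miR-411-5p had 0.269% of the main seed, and miR-381-3p and miR-376c-3p had means of 0.970 and 0.211 CPM. The reads of miR-381-3p and those of miR-376c-3p were each at 0 in 5 of 8 libraries, and 6.88 CPM in het replicate 2 made up most of the level of miR-381-3p. Editing outside the seed, as is known in some of these miRNAs, does not make a read a member and was not measured.

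The genotypes were compared with the library as unit, 4 against 4, on 9 measures. Group means were set against all 70 ways to split the libraries (exact permutation test, two-sided), and p-values were adjusted by Benjamini-Hochberg over the 9. The smallest p this design allows is 0.0286, and a single measure at that p would adjust to 0.257, so a difference in 1 measure alone could not pass. Values are means ± SD with n = 4 for each genotype. The isoform share of ko libraries was 6.90% ± 0.465, against 6.65% ± 0.470 for het libraries. They differed by 0.248 percentage points (exact p = 0.486, adjusted to 0.886). Earlier starts made up 2.74% ± 0.343 of ko reads, against 2.81% ± 0.290 of het reads (exact p = 0.8). Later starts made up 3.96% ± 0.149 against 3.64% ± 0.265 (exact p = 0.0857, adjusted to 0.386).

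The 5p arms came nearest to a difference, with an isoform share of 3.41% ± 0.120 for ko against 3.19% ± 0.119 for het (exact p = 0.0571, adjusted to 0.386). Of the single values given above, het replicate 1 exceeded ko replicate 2, and the other het libraries lay below all ko libraries. On 3p arms the shares were 11.05% ± 0.730 and 10.6% ± 0.968 (exact p = 0.571). Same-start members made up 0.198% in both genotypes (exact p = 0.886).

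The viability measures overlapped between genotypes. The mean viability shift was -5.99 ± 1.59 points for ko against -6.67 ± 0.727 for het (exact p = 0.457). The share of isoform CPM with a seed of lower viability than the main seed was 53.8% ± 3.67 against 54.8% ± 1.33 (exact p = 0.686). The effect of isoforms on mean viability was -0.419 ± 0.141 against -0.446 ± 0.0749 points (exact p = 0.743). The ko libraries had the wider spread in all 3 measures, with ko replicates 3 and 4 at opposite ends.

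Single isoform reads were tested with limma on log2(CPM + 1) in one fit of all 3299 reads with a mean of at least 10 CPM. Of these reads 0.485% were called at an adjusted p under 0.05. Of the 580 isoform reads among them 0 were called by limma, 0 by edgeR and 0 by DESeq2. At an unadjusted limma p under 0.05 there were 20, and 5.30% of all reads tested reached this level. Of the 20, 9 were higher in ko, where 1.12% of all reads were, and 11 lower, where 4.18% were. After each library was centred on its median, 12 were higher and 7 lower, against 53 and 112 of all 3299 reads. The median log2 difference was 0.04 over the isoform reads and -0.02 over all reads.

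The lowest p of reads that were lower in ko belonged to miR-153-3p, a miRNA of neurons, for the read with a start 1 base later. Its CPM was 52.1, 87.3, 32.2 and 25.2 in het and 14.8, 29.6, 5.16 and 6.86 in ko. The groups overlapped by ko replicate 2, and the log2 difference was -1.86 ± 0.541 (SE, limma adjusted p = 0.418). Reads of miR-136-5p (log2 difference -1.13, adjusted p = 0.754) and miR-34b-5p (-1.46, adjusted p = 0.806) followed. The lowest p of reads higher in ko belonged to a 20 nt read of miR-126a-3p (1.77, adjusted p = 0.629), a 19 nt read of miR-128-3p with a start 3 bases later (1.55, adjusted p = 0.629) and a 19 nt read of let-7d-5p with a start 3 bases later (1.17, adjusted p = 0.662). All of these adjusted p-values are from limma. Of these reads, 3 entered the test of at least 10 CPM only through the genotype where they are high. The means of het and ko were 17.7 and 5.69 CPM for miR-34b-5p, 6.40 and 20.7 CPM for miR-126a-3p, and 9.23 and 25.5 CPM for miR-128-3p.

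None of the leading isoform reads passed the limma test. The 22 nt read of miR-9-5p with a start 1 base later had 1759, 1130, 1409 and 1504 CPM in het and 2823, 2195, 1768 and 2518 CPM in ko. Every ko library lay above every het library, and the log2 difference was 0.68 ± 0.265 (SE, limma adjusted p = 0.776). The main seed of miR-9-5p itself differed by 0.40 on the log2 scale (limma adjusted p = 0.852). The 21 nt read of the miR-101a-3p isoform had 2294, 2269, 2518 and 2181 CPM in het and 2132, 2869, 2200 and 4162 CPM in ko, a log2 difference of 0.24 ± 0.272 (limma adjusted p = 0.973).

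Summed by miRNA and seed, 850 combinations of at least 10 CPM were tested, of which 0.824% were called. Of the 400 isoform seeds among them, 1 was called, lower in ko. It was the seed ACACUG of miR-200a-3p, an epithelial miRNA that restrains the mesenchymal state. Its CPM was 32.8, 20.6, 16.7 and 45.8 in het and 2.29, 0.753, 3.87 and 0 in ko, and the groups did not overlap. Its het mean of 29.0 CPM stood against a ko mean of 1.73 CPM, so the seed entered the test of at least 10 CPM through the het libraries, where it is high. The log2 difference was -3.60 ± 0.703 (SE, limma adjusted p = 0.0305). The main seed of miR-200a-3p fell in the same way, by 3.87 on the log2 scale (limma adjusted p = 0.000566), so the isoform and its miRNA moved in the same direction. In bulk tissue fewer cells of a type and less RNA per cell cannot be told apart.

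The 6 epithelial miRNAs on the marker list, miR-200a-3p among them, summed to 2074 to 7976 CPM in het and 156 to 1625 CPM in ko, with none at 0 throughout, and their part in this result was not tested. The call was lost when any of 5 single libraries was left out, while the log2 difference stayed between -3.96 and -3.20 without any one library. The limma adjusted p was 0.0711, 0.102, 0.0813 and 0.236 without het replicates 1 to 4, and 0.0696 without ko replicate 2. It was 0.0706 without both libraries of over 5000000 reads. With a filter at 1 CPM, which both genotypes reached, the limma adjusted p was 0.00141. The seed AUACUG of the related miR-200b-3p (17.4, 19.9, 13.2 and 27.4 CPM in het, 1.40, 1.16, 6.88 and 6.86 in ko) also entered through het, as its ko mean was 4.07 CPM, and gives no support to the call. Its log2 difference was -2.23 ± 0.643 and did not pass (limma adjusted p = 0.281), while DESeq2 gave an adjusted p of 0.0390.

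Across the miR-200 and miR-183 clusters, all 8 listed miRNAs had members, but none of the single reads reached 10 CPM. Their isoform shares had a median of 1.99% and ran from 0.682% to 13.4%, the highest for miR-183-5p. Of the mean level, the share of miR-200a-3p was 1.97% in het and 2.23% in ko. Over the 8 miRNAs it ran from 0.705% to 10.8% in het and from 0.210% to 29.1% in ko, lower in ko for miR-182-5p and miR-96-5p and higher for the others. These shares rest on isoform levels of 0.841 to 18.9 CPM, and some ko shares and directions rest mostly on 1 library. In ko replicate 3 the isoforms were at 11.6 CPM for miR-183-5p and 30.1 CPM for miR-200c-3p. In the other ko libraries both were at 0.803 CPM or less. For miR-429-3p they were at 3.92 CPM in ko replicate 4 and at 0.43 CPM or less in the other ko libraries.

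Of the isoform seeds higher in ko, the 3 with the lowest p were AGUGAA of miR-128-3p, CAUGAU of miR-433-3p and GUAGUA of let-7d-5p. Of those lower in ko, AACCCG of miR-99a-5p came after the miR-200 seeds. AGUGAA had 1.93, 17.2, 20.97 and 15.02 CPM in het and 28.0, 28.2, 39.5 and 56.8 in ko, a difference of 1.68 ± 0.578 (limma adjusted p = 0.533). GUAGUA had 23.2, 21.3, 12.8 and 23.3 CPM in het and 40.3, 24.4, 43.0 and 48.0 in ko. For both of these seeds the ko libraries lay above the het libraries without passing the test. CAUGAU of miR-433-3p was at 85.3 ± 35.3 CPM in ko against 41.3 ± 19.3 in het (log2 difference 1.04, limma adjusted p = 0.542). AACCCG of miR-99a-5p was at 15.3 ± 13.5 against 37.9 ± 8.90 CPM (-1.68, limma adjusted p = 0.533). At an unadjusted p under 0.05 there were 21 isoform seeds, against 6.59% of all combinations. Of these 6 were higher in ko, against 0.941% of all combinations, and 15 lower, against 5.65%. With library medians set equal, the median difference of all combinations went from -0.04 to 0.12, and 15 isoform seeds were higher and 6 lower, against 24 and 25 of all 850 combinations.

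To ask whether the choice of 5′ end differed apart from the level of the miRNA, the ratio of isoform to main seed was tested in 219 miRNAs whose isoforms summed to at least 10 CPM. By limma 0 ratios, or 0% of those tested, were called. At an unadjusted p under 0.05 there were 13, or 5.94%, with 11 (5.02%) higher in ko and 2 (0.913%) lower. The median log2 difference was 0.07. Count tools were not run on ratios.

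The ratio with the lowest p was that of miR-551b-3p, with isoform shares of 3.06%, 2.66%, 3.77% and 3.79% in het and 5.34%, 4.39%, 5.04% and 4.88% in ko. The groups did not overlap, and the log2 difference of the ratio was 0.60 ± 0.164 (SE, limma adjusted p = 0.719). miR-544-5p, of the chromosome 12 cluster, had 14.9%, 24.7%, 12.8% and 18.3% in het and 26.9%, 26.1%, 35.1% and 31.1% in ko, a log2 difference of 0.99 ± 0.277 (limma adjusted p = 0.719). miR-212-3p, the cluster partner of miR-132-3p, had 3.21% ± 0.850 in het and 5.17% ± 0.844 in ko, a log2 difference of 0.73 ± 0.219 (limma adjusted p = 0.721).

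In the other direction stood miR-744-5p with 2.79% ± 0.876 in het and 1.64% ± 0.414 in ko, miR-126a-5p with 3.11% ± 0.471 and 2.10% ± 0.720, and miR-326-3p with 3.81% ± 0.935 and 2.67% ± 0.299. Their log2 differences were -0.73 ± 0.264, -0.61 ± 0.245 and -0.47 ± 0.206 (limma adjusted p = 0.733 for each), and their groups overlapped.

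The limits of 19 and 23 nt had little effect on the isoform share of CPM, but more on the number of distinct reads. Those with another seed numbered 388 at 18 nt and 1569 at 24 nt, outside the limits. Reads with another seed than the main one made up 10.1% of miRNA CPM at 19 nt and 32.03% at 18 nt, a length with 3091 CPM in all. At the long end they made up 5.24% at 23 nt and 5.13% at 24 nt. With all lengths counted, the isoform share of miRNA reads was 6.82%.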

How the data were processed

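Small RNAs bound to Argonaute were sequenced from the brains of 4 het and 4 ko mice. The authors made the table with the SPOROS pipeline, which filters out scarce and artificial sequences and names small RNAs by BLAST. Adapters were trimmed with Trim Galore (per the labels, no version). The deposited values are CPM per library. The deposited total used for main seeds is a signal, the sum of the 8 CPM columns. The deposited viability is a score joined by seed by the authors from an earlier screen, not measured in these mice. The build is not given in the sources used here. Which members the removal of rare reads took out was not tested.

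Members were found by name, length and seed and placed on the main read over 16 bases with at most 1 mismatch. Members, lists and tests were chosen with earlier results of these data known. The miRNAs named are the 12 with most isoform CPM, the 10 with the highest share among names of at least 1000 CPM, the 10 most abundant reads, the 5 most abundant A-to-G reads, the 5 seeds that moved mean viability most each way, and reads, seeds and ratios with the lowest p, 3 in each direction. miR-29b-3p, miR-23b-3p, miR-467a-5p, miR-467d-5p, miR-376a-5p and the let-7 arms fall outside it and were chosen after their values were seen, as were examples of shared or annotated seeds. The scale of whole reads was recovered within 0.05 of a read for 99.8% to 100% of values, and edgeR 4.0.16 and DESeq2 1.42.0 were run on these reads as alternatives. limma 3.58.1 (R 4.3.3, trend and robust) was fitted to all features with a mean of at least 10 CPM, both genotypes and no covariate, with Benjamini-Hochberg adjustment, and checked on simulated data. Members, shares and exact tests were computed in Python 3.11.15 with pandas 2.3.3, scipy 1.17.1 and numpy 2.4.6. Positions are from RefSeq hairpins (GRCm38.p6), matched by name for 750 of 886 names, and overlaps from GENCODE M21. Alternatives were other pseudocounts (0.1 and 10), filters (1 and 100 CPM), main seeds and lengths, centring, the replicate block and leaving out libraries.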

Additional observations from a re-analysis of the deposited data

Results flagged for a closer look

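Over 52 groups of 4 libraries, that is each of 9 measures and the isoform shares of the leading and the highest-share miRNAs in each genotype, 1 library lay far from the others of its group. About 1 in 20 groups, here 2.6, would be singled out by chance. It was ko replicate 2 for miR-411-5p, where the isoform share was 45.8% and the nearest other ko library was at 49.8%. The gap was 0.866 of the range of that group.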

How the results depend on the processing

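No genotype call was made on the 9 per-library measures under the alternatives tried, which says nothing of stability, since the replicate block allows no p under 0.125 and a single measure at the smallest p of 0.0286 adjusts to 0.257. The excess of isoforms on 3p arms kept its direction in all of them, from 1.79 percentage points without seeds that are main for another name to 8.05 with RefSeq main seeds. Of the isoform reads, 1 was called with a filter at 1 CPM (35 of all 16442 reads) and 1 with the replicate block (26 of 3299), against 0 (16 of 3299). Of the isoform seeds, 0 were called with a pseudocount of 0.1 (4 of all 850 combinations), with a filter at 100 CPM (5 of 329), or without both libraries over 5000000 reads (4 of 850), 2 with a filter at 1 CPM (7 of 1990) and 2 by DESeq2 (10 of 850), and 0 to 1 when a library was left out (4 to 9 of 850), against 1 (7 of 850). The call on ACACUG of miR-200a-3p was lost with a pseudocount of 0.1 (log2 difference -4.83), without the deep libraries (-3.66) and without 5 single libraries (-3.96 to -3.20 over all 8).

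No value that changed sign had passed its test. The same-start share differed (ko minus het) by -0.000125 with RefSeq main seeds, -0.00265 without seeds main for another name, -0.00268 without the deep libraries, and -0.00237 to 0.00434 leaving out a library, against 0.000532. The earlier-start share differed by 0.0102 without the deep libraries and by -0.231 to 0.0390 leaving out a library. The share with lower viability seeds differed by 1.40 without seeds main for another name and by -2.61 to 0.340 leaving out a library, and the effect on mean viability by -0.0195 to 0.0916. Among named reads, log2 differences turned for the 22 nt miR-101a-3p read (-0.00197) and A3G of miR-128-3p (-0.23) without the deep libraries. For A3G of miR-132-3p they were 0.0019 with a pseudocount of 0.1, 0.13 without the deep libraries, 0.0635 after centring and 0.0183 by DESeq2. For A3G of let-7a-5p they were 0.0381 after centring, 0.0203 by edgeR and 0.0484 by DESeq2. Leaving out a library gave -0.12 to 0.32 for the 22 nt miR-124-3p read, -0.56 to 0.25 for the 21 nt miR-126a-3p read, -0.0630 to 0.218 and -0.19 to 0.28 for A3G of miR-128-3p and miR-132-3p, and -0.22 to 0.19 and -0.34 to 0.49 for A3G of let-7a-5p and let-7b-5p. The causes were not tested. Of 520 alternatives for 33 named results, 482 kept direction and side of the threshold.

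Same-numbered libraries of both genotypes shared only a number. With the replicate block the isoform share differed by 0.248 (exact sign-flip permutation p = 1), and the one read called was that of miR-153-3p (limma adjusted p = 0.0430). Correlations of deviations of same-numbered libraries over isoform reads ran from -0.0626 to 0.219, and not every library correlated best with its own number. The same-start share has no value when only shifted members are kept. Depth limits single reads most, as 3 reads are 5.79 CPM in het replicate 1.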
